A study of Mus musculus with 10 samples.

Results

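Integrins and cadherins are the receptors by which a fibroblast holds on to its matrix and to its neighbours, and 40 of them were measured on 10 arrays of cultured mouse lung fibroblasts. The genes were chosen by symbol alone: integrin alpha and beta subunits with a numbered name (Itga1, Itga2b, Itgb1 and so on) and cadherins with a numbered name (Cdh1 and so on). No measured value entered the rule, though earlier results of these data were known when the choice was made. The mouse gene table holds 43 such genes, and 40 of them, among the 18193 genes tested, had a probe set assigned to that gene alone. They comprised 11 integrin alpha subunits, 8 beta subunits and 21 cadherins. The names Itga11, Cdh12 and Cdh24 had no such probe set and are not analysed here. The symbol rule does not take the integrins named by a letter, such as Itgav and Itgam, which are described separately, and it does take cadherins outside the classical family, such as Cdh13 and Cdh23.

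Of the arrays, 5 carried RNA of normal lung fibroblasts and 5 carried RNA of carcinoma-associated fibroblasts (CAF), that is, fibroblasts taken from tumour-bearing tissue. Both kinds of cell came from mouse lungs and were kept for 10 to 14 days in DMEM with 10% serum and antibiotics, then replated and grown overnight before RNA was taken, with no further treatment of either group. The labels give no strain, genotype, age or sex of the mice and do not name the tumour model. By their titles the arrays of a group are biological replicates; p-values measure the spread between these cultures.

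Integrins are pairs of 1 alpha and 1 beta subunit that bind matrix proteins outside the cell and couple to actin inside it through talin, kindlin and vinculin. The alpha subunit largely sets the ligand: collagens, laminins, or proteins such as fibronectin that carry the RGD motif. Classical cadherins bind the same cadherin on a neighbouring cell through calcium-dependent domains and are tied to actin by beta-catenin and alpha-catenin. In mesenchymal cells N-cadherin (Cdh2) and cadherin-11 (Cdh11) are the usual classical cadherins, whereas E-cadherin (Cdh1) marks epithelium and VE-cadherin (Cdh5) marks endothelium.

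Values are log2 expression by the robust multi-array average method (RMA), which makes no detection call, and low values can be background. A level is never compared between genes, since probe sets differ in sensitivity. A difference is the CAF mean less the normal mean of log2 values, given ± the standard error from limma fitted across all genes. Each adjusted p is from that fit with Benjamini-Hochberg adjustment over all 18193 genes, with calls made below 0.05. The mean of 9 fibroblast markers such as Col1a1 and Pdgfra was 12.52 to 14.50 on the normal arrays and 12.44 to 13.96 on the CAF arrays. This does not by itself test the fibroblast label. The mean of 12 macrophage and monocyte markers ran from 10.01 to 13.43 in the normal group and from 10.89 to 13.32 in CAF, and all 12 markers had a positive difference. The mean of 5 mesothelial markers ran from 5.88 to 10.20 in the normal group and from 6.63 to 8.99 in CAF, and all 5 had a negative difference. The lowest macrophage and mesothelial means and the highest fibroblast mean were those of normal replicate 2. In bulk RNA, fewer cells of a type and less RNA per cell cannot be told apart. The sample codes of normal replicates 1 to 3 begin with vs, and those of normal replicates 4 and 5 and of all CAF arrays with ls. The labels do not say what these prefixes mean.

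None of the 40 genes was called, against 137 of all genes (0.753%, of which 102 were higher and 35 lower in CAF). The split of all calls between higher and lower moved to 43 and 49 after quantile normalisation and to 250 and 35 after median centring of the arrays. The count over all genes also moved with single arrays: it was 0 without normal replicate 3 or CAF replicate 1, 3 or 5, 1 without CAF replicate 4, and 24, 63 and 46 without normal replicates 1, 4 and 5. At an unadjusted limma p under 0.05, 7 integrins and cadherins (17.5%) were lower in CAF, against 11.8% of all genes, and 0 were higher, against 10.5% of all genes. These 7 were Itga2b, Itga10, Itgb7, Itgb8, Cdh3, Cdh7 and Cdh20. The exact 2-sided permutation test of each gene, whose smallest possible p with 5 arrays a group is 0.00794, gave 6 of the 7 an unadjusted p under 0.05 (all but Cdh3, exact p = 0.0635) and none after adjustment. Leaving out 1 array at a time gave 3 to 7 lower and 0 to 2 higher: 3 lower without CAF replicate 1 or 3, and 4 lower without normal replicate 1, normal replicate 5 or CAF replicate 4. The ones higher were Itga4 without normal replicate 1, Itga8 and Itga9 without normal replicate 2, Cdh1 without normal replicate 3 and Itga9 without CAF replicate 2.

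The values of the groups did not overlap for Itga2b and Itga10, 5% of the 40 genes, both lower in CAF. Over all genes this was so for 7.16%, and for 4.19% with the CAF values lower. The median difference of the 40 genes was -0.02, beside -0.04 over all genes, and 18 of 40 differences were positive, against 42.7% of all genes. A mean log2 of 7 or more over the 10 arrays was reached by 19 of the 40, with Itga4 just inside (normal mean 6.98, CAF mean 7.60) and the muscle cadherin Cdh15 just outside (6.96 and 7.02). Among these 19 brighter genes, 13 differences were positive (68.4%, against 55.6% of the 11374 genes as bright), and the median difference was 0.31 against 0.04. Among the 21 dimmer ones, 5 were positive (23.8%, against 21.3% of the 6819 genes as dim), and the median difference was -0.04.

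**Figure D1:**
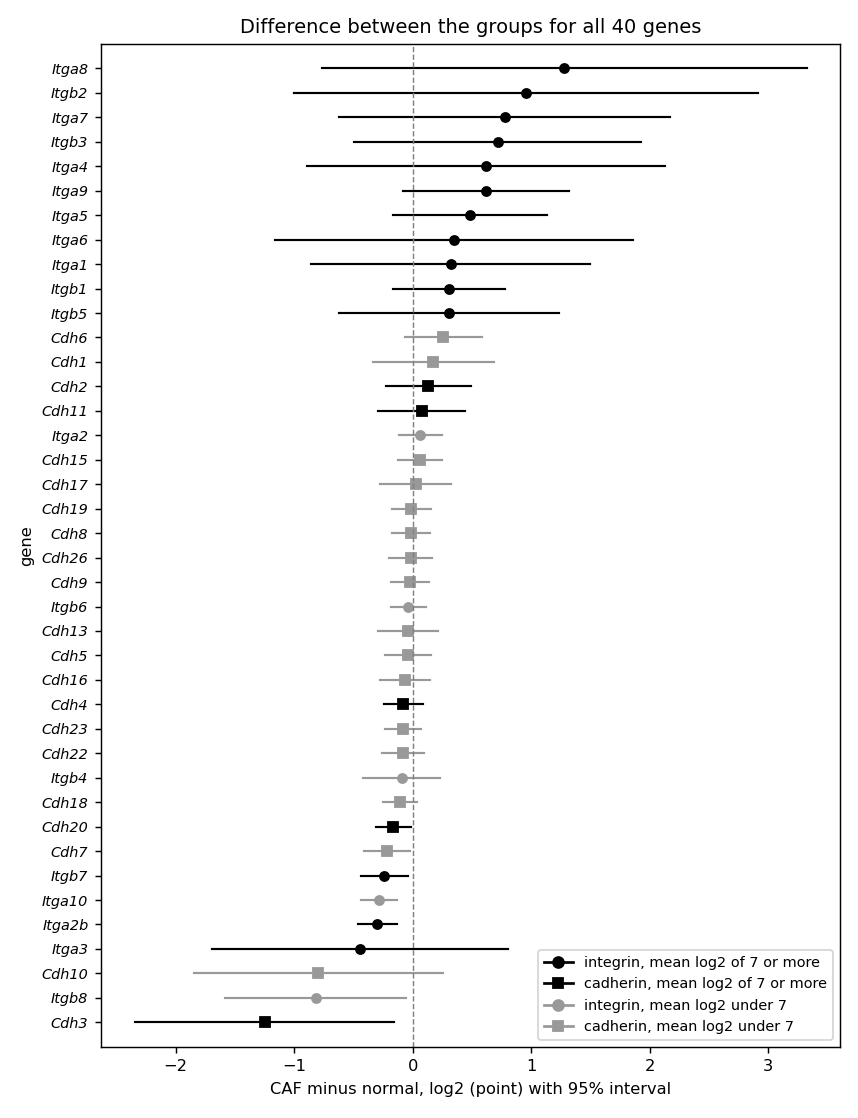
Difference between CAF and normal arrays (log2, x axis) for each of the 40 genes (y axis), sorted by the difference, with its 95% interval from limma; circles are integrins, squares cadherins, black a mean log2 of 7 or more and grey under 7. Cdh3 has the most negative difference (-1.25) and Itga8 the most positive (1.28), and the intervals of 33 genes reach across 0.

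The promoters of 5 alpha subunits are shown, and those of beta subunits and cadherins are not. Itga2b and Itga10 are the pair whose groups did not overlap, and Itga8 had the most positive difference. Itga3 and Itga4, like Itgb2 and Cdh3, followed the markers of another cell type across arrays. Each sequence shown is the 250 bases before the gene's start, 5′ to 3′ in the direction of transcription. The source is the RefSeq promoter table of build GRCm38.p6, which held 25 of the 40 genes. Capitals mark every match, on either strand, of 7 motifs: the GC box GGGCGG, the ETS core AGGAAG, the GATA motif AGATAA, the AP-1 motif TGANTCA, the RUNX motif TGTGGT, the TATA box TATAAA and the TEAD motif CATTCC. The windows lie at chr11:102469884-102470133 on the minus strand, chr3:96645334-96645583 on the plus strand, chr11:95076715-95076964 on the minus strand, chr2:79255176-79255425 on the plus strand and chr2:12301945-12302194 on the minus strand.
Itga2b: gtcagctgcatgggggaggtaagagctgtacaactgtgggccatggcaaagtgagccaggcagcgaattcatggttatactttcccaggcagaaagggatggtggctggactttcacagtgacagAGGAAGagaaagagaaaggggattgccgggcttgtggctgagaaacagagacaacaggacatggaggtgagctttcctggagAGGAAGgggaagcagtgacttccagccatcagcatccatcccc
Itga10: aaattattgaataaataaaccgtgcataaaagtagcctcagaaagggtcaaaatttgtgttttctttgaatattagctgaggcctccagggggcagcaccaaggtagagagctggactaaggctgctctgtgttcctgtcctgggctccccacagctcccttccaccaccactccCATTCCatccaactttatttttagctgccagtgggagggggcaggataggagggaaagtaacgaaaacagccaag
Itga3: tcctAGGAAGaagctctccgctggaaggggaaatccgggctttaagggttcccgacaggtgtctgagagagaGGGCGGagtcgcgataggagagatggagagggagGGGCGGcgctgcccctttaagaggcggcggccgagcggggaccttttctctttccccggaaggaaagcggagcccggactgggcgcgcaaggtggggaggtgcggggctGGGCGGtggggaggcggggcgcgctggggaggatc
Itga4: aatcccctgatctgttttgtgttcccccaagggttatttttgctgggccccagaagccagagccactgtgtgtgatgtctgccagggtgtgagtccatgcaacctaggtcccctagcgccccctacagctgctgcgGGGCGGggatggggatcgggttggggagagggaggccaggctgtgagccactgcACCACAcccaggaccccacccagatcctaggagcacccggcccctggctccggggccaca
Itga8: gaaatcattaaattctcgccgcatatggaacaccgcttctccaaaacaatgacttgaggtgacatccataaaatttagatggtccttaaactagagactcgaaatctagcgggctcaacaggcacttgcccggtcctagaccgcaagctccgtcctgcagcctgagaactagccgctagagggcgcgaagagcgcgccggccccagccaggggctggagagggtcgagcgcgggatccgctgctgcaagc

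The Itga2b window held 2 ETS cores, a motif found in 29.5% of all 32851 promoters in the same window. The Itga10 window held 1 TEAD motif (12.6% of all promoters), so these 2 windows shared none of the motifs searched. The Itga3 window, with 67.6% G and C against a median of 52.4% over all promoters, held 3 GC boxes (32.7% of all promoters have at least 1) and 1 ETS core. The Itga4 window held 1 GC box and 1 RUNX motif, which lies on the other strand and is found in 14% of all promoters. The Itga8 window held none of the 7. No match overlapped another, and no match for GATA (9.99% of all promoters), AP-1 (6.75%) or the TATA box (12.4%) was in any of the 5 windows. A match is a description of the letters and not a binding site.

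The beta subunits come first among the brighter genes, since each pairs with several alpha subunits. Itgb1, the common partner of the collagen, laminin and fibronectin receptors, had the smallest range over the arrays of the 4 beta subunits with a positive difference. Itgb1 read 13.52, 13.89, 12.70, 13.20 and 13.67 on normal replicates 1 to 5 and 13.47, 13.73, 14.04, 13.64 and 13.63 on CAF replicates 1 to 5. The lowest were normal replicates 3 and 4, and the CAF values lay inside the normal range but for replicate 3, the highest of all. Itgb1 differed by 0.31 ± 0.21 (adjusted p = 0.409), with a 95% interval of -0.16 to 0.78, and by 0.13 without normal replicate 3. Itgb5, the partner of the alpha v subunit in a vitronectin receptor, differed by 0.31 ± 0.41 (adjusted p = 0.69). Itgb5 read 13.26, 14.15, 11.71, 12.29 and 12.82 on normal replicates 1 to 5 and 13.49, 12.59, 13.50, 13.32 and 12.85 on CAF replicates 1 to 5. Its CAF values lay wholly within the normal range, whose ends are normal replicates 2 and 3. Leaving out normal replicate 3, 4 or 2 gave Itgb5 a difference of 0.02, 0.17 or 0.63.

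Itgb3, another partner of alpha v and the partner of alpha IIb on platelets, ranged over 3 log2 units. Itgb3 read 6.59, 7.02, 7.90, 9.01 and 7.96 on normal replicates 1 to 5 and 8.58, 9.79, 8.13, 7.14 and 8.43 on CAF replicates 1 to 5. Normal replicates 1 and 2 and CAF replicate 4 were low and CAF replicate 2 high. The difference was 0.72 ± 0.54 (adjusted p = 0.456), with an interval of -0.49 to 1.93. It was 1.24 against the 3 normal arrays with prefix vs and -0.07 against the 2 with prefix ls. Leaving out normal replicate 1 or CAF replicate 2 gave 0.44 or 0.38.

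Itgb2, the leukocyte beta subunit, had the widest range among the beta subunits. Itgb2 read 13.36, 8.65, 11.99, 10.66 and 9.77 on normal replicates 1 to 5 and 13.40, 11.46, 10.48, 11.39 and 12.49 on CAF replicates 1 to 5. High values occurred in both groups, on normal replicate 1 and CAF replicate 1, and the lowest was normal replicate 2. The difference was 0.96 ± 0.88 (adjusted p = 0.54), with an interval of -0.998 to 2.91. It was 1.63 relative to the ls normal arrays and 0.51 relative to the vs ones. Single arrays moved it to 1.58 (without normal replicate 1), 0.40 (without normal replicate 2) and 0.57 (without CAF replicate 1). Itgb2 followed the mean of the macrophage and monocyte markers across the 10 arrays (Pearson r = 0.978, permutation p = 1e-05, the smallest 100000 permutations can give; adjusted p = 0.0008 over the 80 relations computed, 40 genes against the macrophage and the mesothelial list; Spearman rho = 0.952, p = 7e-05, adjusted p = 0.0048). Without the 2 arrays farthest from the median of the markers, normal replicate 1 and CAF replicate 1, r was 0.959. With each group's mean removed it was 0.987, and over the 7 arrays with prefix ls it was 0.972 (permutation p = 0.00119, adjusted p = 0.0952). The part of those cells in the Itgb2 values was not tested beyond this.

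Itgb7, a leukocyte beta subunit that pairs with alpha 4 and alpha E, was among the 7 at an unadjusted p under 0.05. Itgb7 read 8.24, 8.23, 8.07, 8.25 and 8.26 on normal replicates 1 to 5 and 8.08, 8.12, 8.06, 7.72 and 7.86 on CAF replicates 1 to 5. The groups overlapped, since normal replicate 3 lay below CAF replicates 1 and 2. The difference was -0.24 ± 0.09 (adjusted p = 0.158), and its values spanned 7.72 to 8.26 over all arrays, far less than those of Itgb2. It was -0.28 relative to the ls normal arrays and -0.21 relative to the vs ones.

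**Figure D2:**
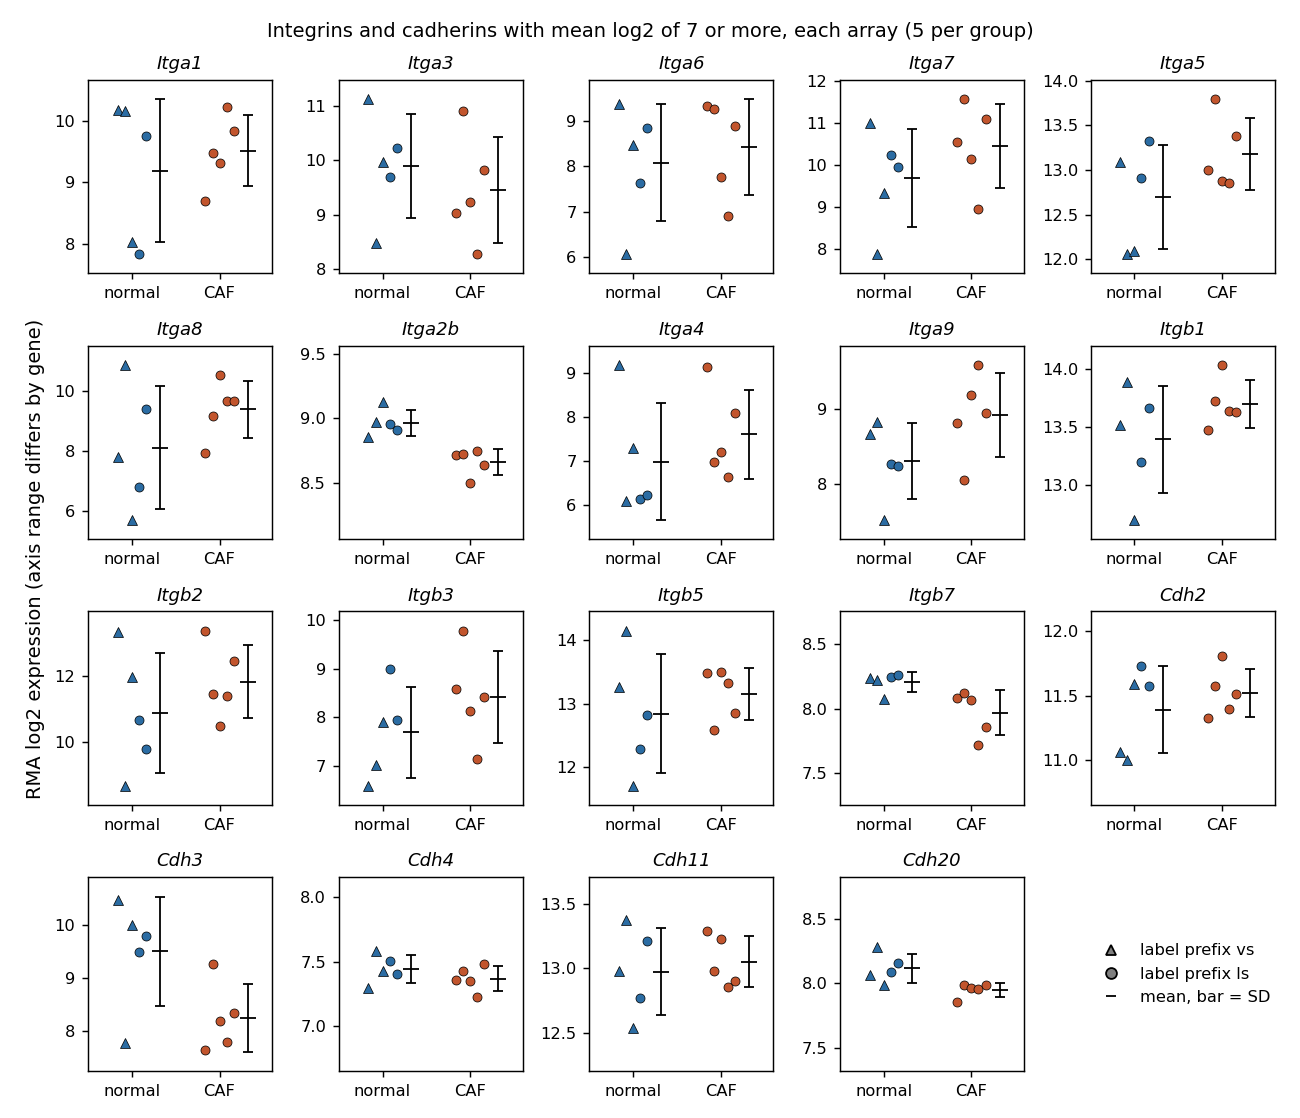
RMA log2 expression (y axis, range set for each gene) of the 19 genes with a mean log2 of 7 or more, 1 panel a gene, on 5 normal and 5 CAF arrays; triangles are arrays with label prefix vs, circles those with prefix ls, and the bar beside each group is its mean with SD. The groups are apart for Itga2b alone, and the normal values of Itgb2, Itga8 and Itga4 each spread over more than 3 log2 units, as do those of Itga6 and Itga7.

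Among the alpha subunits of collagen receptors, Itga1, which pairs with beta 1, was the only one with a mean of 7 or more. Itga1 read 10.17, 10.16, 8.02, 7.83 and 9.75 on normal replicates 1 to 5 and 8.69, 9.47, 9.32, 10.22 and 9.83 on CAF replicates 1 to 5. Normal replicates 3 and 4 lay below every CAF value, and the other 3 normal values lay among the CAF values. The difference was 0.32 ± 0.53 (adjusted p = 0.746). It turned to -0.02 with normal replicate 4 left out, shrank to 0.03 and 0.14 on leaving out normal replicate 3 and CAF replicate 4, and was 0.52 to 0.57 on leaving out normal replicate 1, normal replicate 2 or CAF replicate 1. The gene's other probe set differed by -0.05, so the sign is not settled.

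The 3 laminin-binding alpha subunits, Itga3, Itga6 and Itga7, differed in opposite directions. Itga3, the partner of beta 1 in a laminin receptor of epithelia, differed by -0.44 ± 0.56 (adjusted p = 0.666). Itga3 read 11.12, 8.48, 9.96, 9.69 and 10.22 on normal replicates 1 to 5 and 9.02, 10.91, 9.23, 8.28 and 9.82 on CAF replicates 1 to 5. The highest values were normal replicate 1 and CAF replicate 2 and the lowest CAF replicate 4 and normal replicate 2, so both groups held both ends. Leaving out normal replicate 1 or CAF replicate 4 gave -0.14 or -0.15, and leaving out normal replicate 2 or CAF replicate 2 gave -0.80 or -0.81. Its other 2 probe sets differed by -0.39 and -0.31. Itga6, the alpha subunit that also forms the hemidesmosomal integrin with beta 4, differed by 0.35 ± 0.68 (adjusted p = 0.788). Itga6 read 9.38, 6.07, 8.47, 7.64 and 8.85 on normal replicates 1 to 5 and 9.32, 9.26, 7.77, 6.91 and 8.88 on CAF replicates 1 to 5. Normal replicate 2 was the lowest by far, and without it the difference was -0.16. Leaving out normal replicate 1 or 5 or CAF replicate 1, 2 or 4 instead gave 0.12 to 0.73.

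Itga7, a laminin receptor best known in skeletal and smooth muscle, differed by 0.78 ± 0.62 (adjusted p = 0.484). Itga7 read 10.99, 7.88, 9.34, 10.23 and 9.95 on normal replicates 1 to 5 and 10.54, 11.56, 10.13, 8.95 and 11.09 on CAF replicates 1 to 5. CAF replicates 2 and 5 were the highest and normal replicate 2 the lowest, with normal replicate 1 between CAF replicates 1 and 5. Leaving out replicate 2 of the normal or of the CAF arrays gave 0.33 or 0.50. The differences of Itga7 were 0.36 relative to the ls normal arrays and 1.05 relative to the vs ones.

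Itga3 followed the mesothelial markers across the 10 arrays (r = 0.913, permutation p = 0.0004, adjusted p = 0.0086 over the 80 relations; rho = 0.952, p = 0.00012, adjusted p = 0.0048). It kept an r of 0.841 without normal replicate 2 and CAF replicate 4, the farthest from the median of those markers, 0.910 with group means removed and 0.905 over the 7 ls arrays. The adjusted p was 0.0509 without normal replicate 1, 0.223 without the 2 farthest arrays and 0.262 over the ls arrays. The r of Itga6 with the same markers was 0.757 (permutation p = 0.0114, adjusted p = 0.182; rho = 0.636, p = 0.0546), and it was 0.308 without the same 2 arrays, so it rests on them.

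Of the alpha subunits that recognise RGD, Itga5, the alpha subunit of the classic fibronectin receptor, differed by 0.48 ± 0.29 (adjusted p = 0.348). Itga5 read 13.09, 12.06, 12.10, 12.92 and 13.32 on normal replicates 1 to 5 and 13.00, 13.79, 12.87, 12.85 and 13.38 on CAF replicates 1 to 5. Normal replicates 2 and 3 were low, and the other 3 normal arrays lay among the CAF arrays. The difference was 0.06 relative to the ls normal arrays and 0.76 relative to the vs ones, and the gene's other 3 probe sets differed by -0.085 to 0.41. Itga8, the receptor of nephronectin and tenascin on mesenchymal cells, had the most positive difference of the 40 and also the widest spread. Itga8 read 7.80, 10.85, 5.70, 6.79 and 9.38 on normal replicates 1 to 5 and 7.93, 9.15, 10.52, 9.65 and 9.67 on CAF replicates 1 to 5. The lowest and the highest value were both normal, replicates 3 and 2, and 4 of 5 CAF values lay between 9.15 and 10.52. The difference was 1.28 ± 0.92 (adjusted p = 0.431), its interval ran from -0.77 to 3.32, and the other probe set of the gene differed by 0.997. It was 1.30 relative to the ls normal arrays and 1.27 relative to the vs ones. Leaving out normal replicate 3 gave 0.68 and leaving out normal replicate 2 gave 1.97, and in the latter case the unadjusted limma p was under 0.05.

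Itga2b, the alpha IIb subunit of the platelet fibrinogen receptor, was the only one of the 19 whose groups did not overlap. Itga2b read 8.86, 8.97, 9.13, 8.95 and 8.91 on normal replicates 1 to 5 and 8.71, 8.72, 8.50, 8.74 and 8.64 on CAF replicates 1 to 5. Every CAF value lay below every normal value, the nearest pair being CAF replicate 4 and normal replicate 1. Every CAF array also had a lower median over all probe sets (6.73 to 6.74) than every normal array (6.76 to 6.79). The part of this in the Itga2b values was not tested beyond the median centring given below, and those values may include background. The difference was -0.30 ± 0.07 (adjusted p = 0.0744), with an interval of -0.46 to -0.14, so the call missed the threshold. It was -0.27 relative to the ls normal arrays and -0.32 relative to the vs ones. After median centring of the arrays it was -0.26, with an adjusted limma p of 0.102. After quantile normalisation it was -0.43 with an adjusted p of 0.0444, the only setting in which any of the 40 genes was called. Over the other settings with limma, median centring included, the adjusted p ran from 0.0692 to 0.323. Of 4 platelet markers, Gp9 was lower in CAF without overlap (-0.16 ± 0.06, adjusted p = 0.173), and Pf4, Ppbp and Gp1bb had positive differences (0.23 ± 0.65, 1.08 ± 1.19 and 0.66 ± 0.47). The mean of the 4 ran from 8.31 to 9.85 in the normal group and from 8.72 to 9.75 in CAF; their part in the Itga2b values was not tested.

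Itga4 and Itga9 form a structural pair of alpha subunits without the collagen-binding domain. Itga4, the receptor of VCAM-1 and fibronectin on leukocytes, differed by 0.62 ± 0.68 (adjusted p = 0.612). Itga4 read 9.18, 6.09, 7.29, 6.12 and 6.23 on normal replicates 1 to 5 and 9.12, 6.97, 7.20, 6.63 and 8.10 on CAF replicates 1 to 5. Normal replicate 1 and CAF replicate 1 stood above the rest, and normal replicates 2, 4 and 5 were the lowest. The difference was 1.43 relative to the ls normal arrays and 0.08 relative to the vs ones. Leaving out replicate 1 of the normal or of the CAF arrays gave 1.17 or 0.24, and leaving out normal replicate 2 or 4 gave 0.40 or 0.41. Its other 4 probe sets differed by -0.01 to 0.20. Itga4 followed the macrophage and monocyte markers (r = 0.893, permutation p = 0.00043, adjusted p = 0.0086; rho = 0.855, p = 0.00259, adjusted p = 0.0518). The r was 0.762 without normal replicate 1 and CAF replicate 1 (permutation p = 0.0289, adjusted p = 0.359), 0.890 with group means removed and 0.862 over the 7 ls arrays (adjusted p = 0.282). Without normal replicate 1 alone it was 0.855 (adjusted p = 0.0518).

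Itga9, a receptor of tenascin-C and osteopontin, differed by 0.62 ± 0.31 (adjusted p = 0.274), with an interval of -0.08 to 1.31. Itga9 read 8.67, 8.83, 7.52, 8.27 and 8.24 on normal replicates 1 to 5 and 8.82, 8.06, 9.20, 9.60 and 8.96 on CAF replicates 1 to 5. CAF replicates 3, 4 and 5 lay above every normal value, and CAF replicate 2 lay below all normal values but replicate 3. The difference was 0.67 relative to the ls normal arrays and 0.58 relative to the vs ones, and the other 2 probe sets differed by 0.08 and 0.87. Itga8 and Itga9 were the 2 genes higher in CAF at an unadjusted p under 0.05 when normal replicate 2 was left out.

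**Figure D3:**
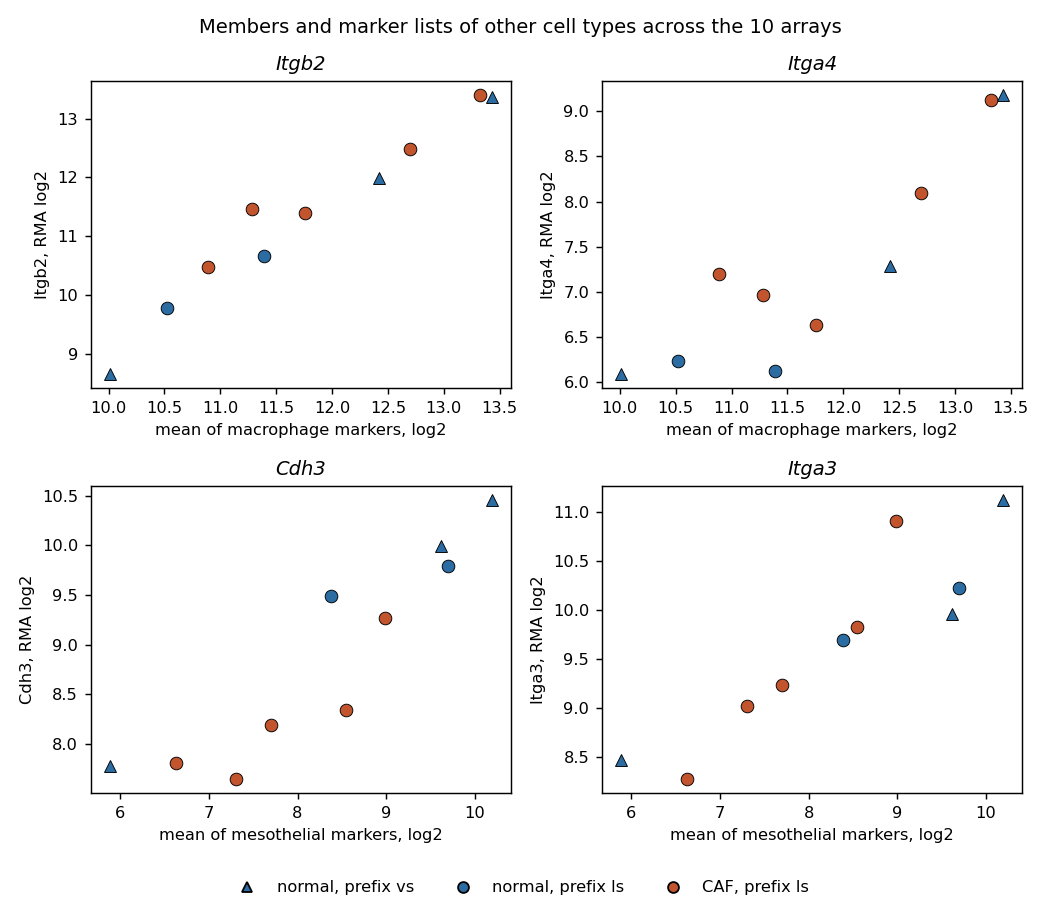
Level of Itgb2 and Itga4 (y axis, log2) against the mean of 12 macrophage and monocyte markers (x axis, log2), and of Cdh3 and Itga3 against the mean of 5 mesothelial markers, with 1 point an array; blue is normal, orange CAF, triangles prefix vs and circles prefix ls. The points of both groups lie along 1 line in the Itgb2 panel (r = 0.978), and normal replicate 2 is the leftmost point in all 4 panels.

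Among the classical cadherins, Cdh2 and Cdh11 differed little between the groups by the probe sets used. Cdh2 read 11.06, 11.00, 11.59, 11.73 and 11.58 on normal replicates 1 to 5 and 11.33, 11.57, 11.81, 11.40 and 11.51 on CAF replicates 1 to 5. For N-cadherin, normal replicates 1 and 2 were the lowest and the other values overlapped. Cdh2 differed by 0.13 ± 0.16 (adjusted p = 0.657), by 0.31 relative to the vs and by -0.13 relative to the ls normal arrays. It was 0.03 to 0.06 without normal replicate 1 or 2 or CAF replicate 3, and 0.22 without normal replicate 4. The other probe set of Cdh2 differed by 0.35 ± 0.20. Cdh11 read 12.98, 13.38, 12.54, 12.77 and 13.21 on normal replicates 1 to 5 and 13.29, 12.98, 13.23, 12.86 and 12.90 on CAF replicates 1 to 5. For cadherin-11, the CAF values lay wholly within the normal range. Cdh11 differed by 0.08 ± 0.16 (adjusted p = 0.809), with an interval of -0.29 to 0.44, and by -0.03 without normal replicate 3. The other arrays left out 1 at a time gave 0.02 to 0.18. The other probe set of Cdh11 differed by 0.27 ± 0.20.

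Cdh3, or P-cadherin, a classical cadherin of placenta and epithelia, had the most negative difference of the 40. Cdh3 read 10.46, 7.78, 9.99, 9.49 and 9.79 on normal replicates 1 to 5 and 7.65, 9.27, 8.19, 7.81 and 8.35 on CAF replicates 1 to 5. Of the normal arrays, 4 lay above every CAF value, and normal replicate 2, at 7.78, lay among the lowest CAF values. The difference was -1.25 ± 0.49 (adjusted p = 0.177), with an interval of -2.35 to -0.15 and an unadjusted p of 0.0293. It was -1.39 relative to the ls normal arrays and -1.16 relative to the vs ones, and -1.68 without normal replicate 2. The gene's other probe set differed by -0.31.

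Cdh3 followed the mesothelial markers across the 10 arrays (r = 0.913, permutation p = 0.00031, adjusted p = 0.0086; rho = 0.915, p = 0.00048, adjusted p = 0.0128). The r was 0.931 without normal replicate 2 and CAF replicate 4 and 0.957 with each group's mean removed. Over the 7 ls arrays it was 0.877 (adjusted p = 0.282), and without normal replicate 1 it was 0.887 (adjusted p = 0.0509). The 5 mesothelial markers differed by -0.19 ± 0.49 (Msln), -1.07 ± 1.51 (Upk3b), -0.20 ± 0.96 (Wt1), -2.99 ± 1.15 (Lrrn4, adjusted p = 0.170) and -0.17 ± 0.23 (Krt19). Itgb2, Itga3, Itga4 and Cdh3 were the only genes of the 40 to pass an adjusted p of 0.05 with either list. Relations to epithelial markers, a list that also holds Krt19, were not computed.

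Cdh20, a type II cadherin, was lower in CAF at an unadjusted p under 0.05. Cdh20 read 8.06, 8.28, 7.98, 8.09 and 8.15 on normal replicates 1 to 5 and 7.86, 7.99, 7.96, 7.95 and 7.99 on CAF replicates 1 to 5. CAF replicate 1 was the lowest, and normal replicate 3 lay just below CAF replicates 2 and 5, which was the only overlap. The difference was -0.16 ± 0.07 (adjusted p = 0.19). Cdh4, or R-cadherin, a classical cadherin of retina and brain, differed by -0.08 ± 0.07 (adjusted p = 0.551), and its values ran from 7.30 to 7.59 on normal and from 7.22 to 7.48 on CAF arrays. Its difference was -0.04 without normal replicate 2 or CAF replicate 4.

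**Figure D4:**
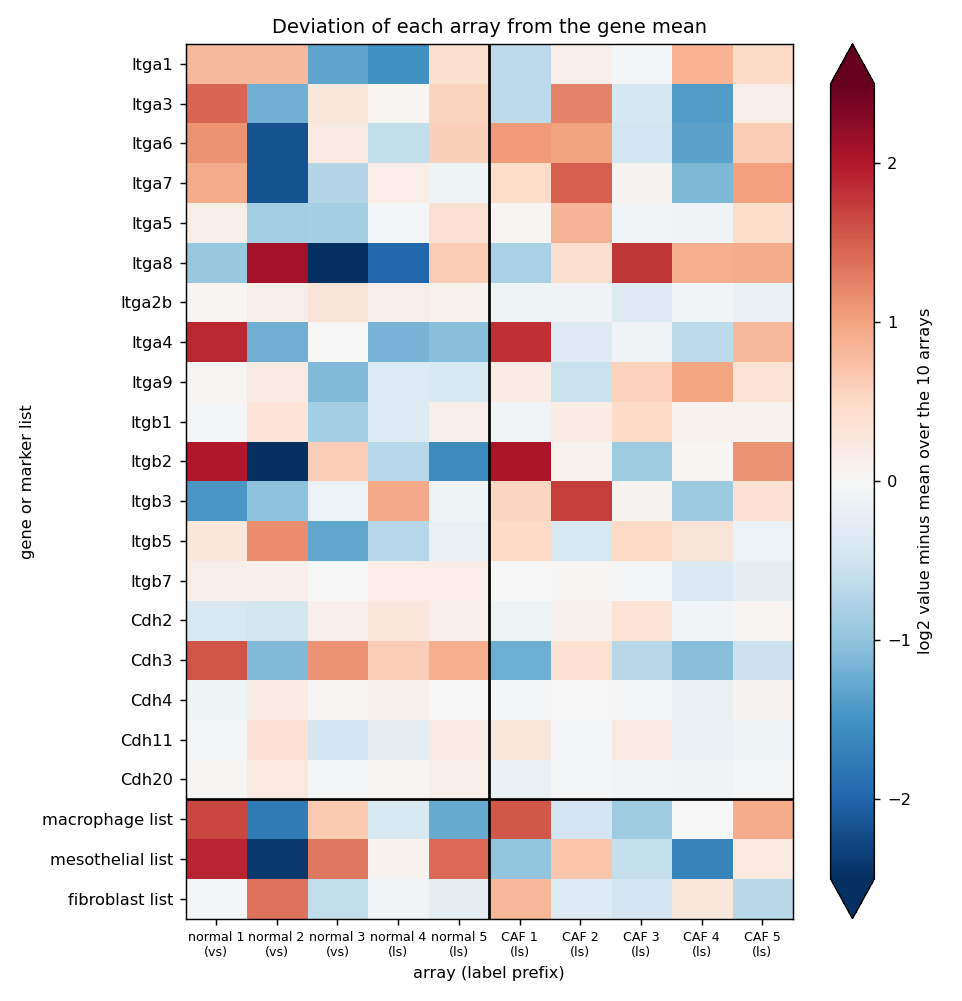
Deviation of each array (columns, with label prefix) from the gene's mean over the 10 arrays (log2, colour scale from blue, lower, to red, higher) for the 19 brighter genes and, under the line, the means of the macrophage, mesothelial and fibroblast markers; the vertical line separates normal from CAF arrays. Normal replicate 2 is low for Itgb2, Itga3, Itga6, Itga7 and Cdh3 and high for Itga8 and Itgb5.

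The spread between cultures was wide for many of the brighter genes. Over the 19, the median SD was 0.93 among normal and 0.57 among CAF arrays, against 0.33 and 0.18 over the 11374 genes as bright. The normal SD was the larger for 15 of the 19 (78.9%), beside 81.3% of those genes. The range over the 10 arrays was 0.36 at its smallest (Cdh4) and 5.15 at its largest (Itga8). Taken separately against the 2 ls arrays and the 3 vs arrays of the normal group, the difference had opposite signs for Itgb3 and Cdh2 among the 19.

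**Figure D5:**
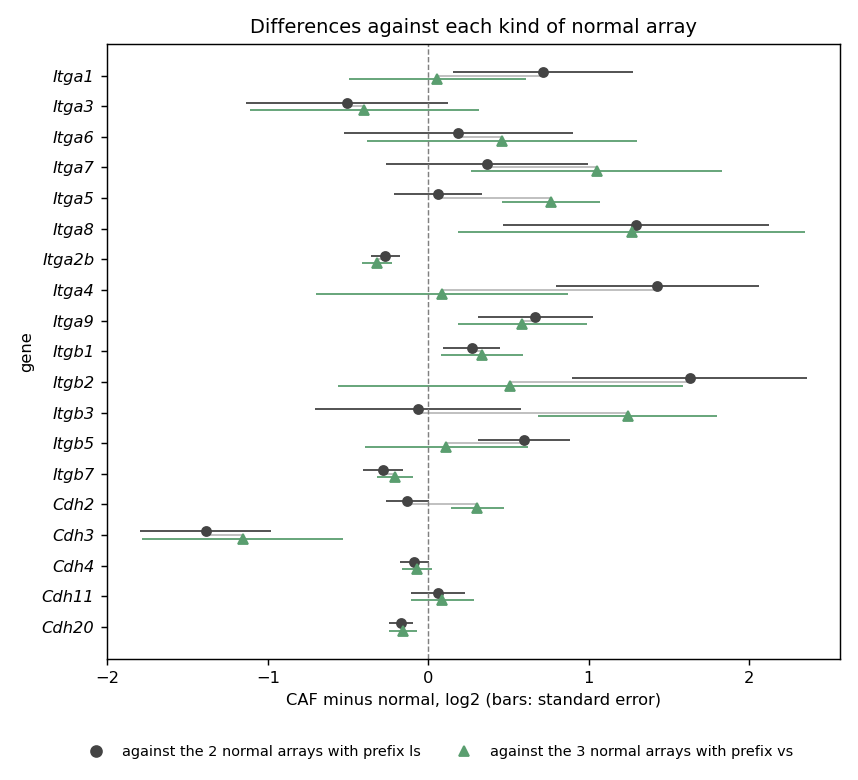
Difference of the 5 CAF arrays (log2, x axis) from the 2 normal arrays with prefix ls (circles) and from the 3 with prefix vs (triangles) for the 19 brighter genes (y axis); bars are standard errors. The 2 estimates lie close together for Itga2b (-0.27 and -0.32) and Itga8 (1.30 and 1.27) and apart for Itga4 (1.43 and 0.08) and Itgb3 (-0.07 and 1.24).

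Among the 21 genes with a mean under 7, Itga10, the alpha subunit of a collagen receptor of cartilage, was the second of the pair without overlap. Itga10 read 5.71, 5.93, 5.82, 5.82 and 5.68 on normal replicates 1 to 5 and 5.58, 5.45, 5.61, 5.45 and 5.44 on CAF replicates 1 to 5. The highest CAF value, replicate 3, lay below the lowest normal value, replicate 5. The difference was -0.285 ± 0.07 (adjusted p = 0.0687), with an interval of -0.43 to -0.14, and at this level the values may be close to background.

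Itgb8, which with alpha v binds latent TGF-beta, was lower in CAF by a wider margin but with overlap. Itgb8 read 6.83, 5.13, 6.80, 5.74 and 5.41 on normal replicates 1 to 5 and 5.01, 5.35, 4.85, 5.10 and 5.51 on CAF replicates 1 to 5. Normal replicates 1 and 3 were high, and the other normal values lay near or among the CAF values. The difference was -0.82 ± 0.34 (adjusted p = 0.196), or -0.41 relative to the ls normal arrays and -1.09 relative to the vs ones. Cdh7 read 5.69, 5.45, 5.27, 5.53 and 5.52 on normal replicates 1 to 5 and 5.16, 5.28, 5.25, 5.45 and 5.23 on CAF replicates 1 to 5. For this type II cadherin, normal replicate 1 was the highest and normal replicate 3 lay among the CAF values. Cdh7 differed by -0.22 ± 0.09 (adjusted p = 0.182).

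Markers of other tissues were among the dimmer genes. Cdh1, the cadherin of epithelium, read 4.60 to 4.69 on 4 normal arrays, 5.73 on normal replicate 3 and 4.74 to 5.41 on the CAF arrays. Its difference was 0.17 ± 0.23 (adjusted p = 0.68), and 0.39 without normal replicate 3. The mean of 10 epithelial markers was also highest on normal replicate 3, at 7.73. It spanned 6.73 to 7.73 in the normal group and 6.49 to 7.44 in CAF. Krt8 (11.37), Krt18 (11.35), Krt19 and Scgb1a1 were highest on that array, but Cldn4, Cldn7, Sftpc, Nkx2-1 and Elf3 were not. Epcam, at 8.06, had its lowest normal value there. Of the 10 markers 9 had a negative difference, and their part in the Cdh1 values was not tested. Cdh5, the cadherin of endothelium, ranged from 5.60 to 5.97 on the 5 normal arrays and had its CAF values within 5.59 to 5.83; it differed by -0.04 ± 0.09 (adjusted p = 0.805). Cdh15, the cadherin of muscle precursors, differed by 0.06 ± 0.08 (adjusted p = 0.699). Without normal replicate 4 the difference of Cdh5 was 0.01, so it has no settled sign.

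Cdh10, a type II cadherin best known from brain, was not among the 7 but had a wide spread. Its values were 5.70, 5.53, 7.56, 6.92 and 7.57 on normal replicates 1 to 5 and 5.25 to 6.80 on CAF arrays. The difference was -0.80 ± 0.47 (adjusted p = 0.341), or -1.39 relative to the ls normal arrays and -0.40 relative to the vs ones; Cdh10 was named after its values were seen. The 14 other dimmer genes had differences from -0.11 (Cdh18) to 0.26 (Cdh6), adjusted p-values of 0.325 or more and ranges over the 10 arrays of 0.26 to 0.84. They were Itga2, Itgb4, Itgb6, Cdh6, Cdh8, Cdh9, Cdh13, Cdh16, Cdh17, Cdh18, Cdh19, Cdh22, Cdh23 and Cdh26. The other probe set of Cdh6, also dim (mean 5.99), differed by 0.50 ± 0.16 in a limma fit of single probe sets. Its unadjusted p in that fit was 0.00913, and 0.111 after adjustment over all single-symbol probe sets.

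Integrin subunits outside the numbered names gave a like picture, with 0 of 6 measured genes called and 0 at an unadjusted p under 0.05. Of all genes, 0.753% were called, and 10.5% were higher and 11.8% lower at that unadjusted p. The median difference of the 6 was 0.36, with 4 positive, beside -0.04 and 42.7% positive over all genes. For genes with a mean of 7 or more it was 0.04, with 55.6% positive. Itgav, the alpha v subunit that pairs with beta 1, 3, 5, 6 and 8, differed by 0.21 ± 0.14 (adjusted p = 0.395), with means of 13.02 ± 0.27 on normal and 13.23 ± 0.17 on CAF arrays (SD, n = 5 per group). Itgax, a leukocyte subunit that pairs with beta 2, differed by 0.73 ± 0.42 (adjusted p = 0.330). The other beta 2 partners measured, Itgal and Itgam, differed by 0.52 ± 0.71 and 0.68 ± 0.94 (adjusted p = 0.694 and 0.695) and were named after their values were seen. The negative ones were Itgae (-0.05 ± 0.06, adjusted p = 0.625) and the integrin-like Itgbl1 (-0.25 ± 0.95, adjusted p = 0.898).

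Of 25 measured integrin adaptors and kinases, 0 were called, 2 were higher and 0 lower in CAF at an unadjusted p under 0.05, and 19 differences were positive, with a median of 0.11. Over all genes, 0.753% were called, 10.5% were higher and 11.8% lower at that unadjusted p, and 42.7% were positive (55.6% of those with a mean of 7 or more). The 2 were Tns3, a tensin that links beta subunits to actin, and Parvb, a parvin that binds integrin-linked kinase. Tns3 differed by 0.67 ± 0.16 (adjusted p = 0.0732) without overlap of the groups, and Parvb by 0.86 ± 0.23 (adjusted p = 0.0860). Only 1 of the 25, Tns3, had no overlap, against 7.16% of all genes. The smallest p-values among the negative ones were those of Ilk, integrin-linked kinase (-0.21 ± 0.12, adjusted p = 0.318), and Zyx, or zyxin, a focal adhesion protein (-0.19 ± 0.18, adjusted p = 0.551).

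Of 16 catenins and other partners of cadherins, 0 were called, 9 differences were positive and the median was 0.06. By comparison, 0.753% of all genes were called and 42.7% were positive (55.6% of those with a mean of 7 or more). Pkp4, a p120-related catenin, differed by 0.76 ± 0.16 (adjusted p = 0.0613), and its groups did not overlap. Ctnnb1, beta-catenin, which binds the tail of classical cadherins, differed by 0.23 ± 0.10 (adjusted p = 0.208). These were the 2 at an unadjusted p under 0.05, both higher in CAF, as were 10.5% of all genes, and Pkp4 was the only one of the 16 without overlap, against 7.16% of all genes. Nectin1, a junction protein of the immunoglobulin family, differed by -0.34 ± 0.18 (adjusted p = 0.297) and Ctnna2, the neural alpha-catenin, by -0.14 ± 0.08 (adjusted p = 0.344).

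Of 25 measured integrin ligands, 0 were called, and 4 were higher and 4 lower in CAF at an unadjusted p under 0.05, with a median difference of 0.03. The shares of all genes were 10.5% and 11.8%. The laminin chain Lama1 differed by 1.23 ± 0.34 (adjusted p = 0.0915) and Tnc, tenascin-C, a ligand of alpha 8 and alpha 9, by 1.45 ± 0.50 (adjusted p = 0.138). In the other direction, the laminin chain Lama5 differed by -0.89 ± 0.33 (adjusted p = 0.163) and the collagen VI chain Col6a1 by -0.91 ± 0.36 (adjusted p = 0.182). The groups overlapped for all 25 of these ligands, and did not for 7.16% of all genes.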

How the data were processed

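Total RNA of 10 cultures was labelled as biotinylated cRNA and hybridised to Affymetrix Mouse430_2 arrays, 1 array a culture. The deposited table holds log2 values made by the authors with RMA in Affymetrix Expression Console, per the submitters' processing notes, which also name limma; their versions are not given in the sources used here. Since RMA corrects background, normalises the arrays against each other and combines the probes of a set, differences are relative to the rest of each array. The distributions of the deposited values still differed between the groups. Array medians ran from 6.73 to 6.74 in CAF and from 6.76 to 6.79 in the normal group. Array SDs ran from 2.41 to 2.44 in CAF and from 2.33 to 2.39 in the normal group. Groups and replicate numbers came from the titles.

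Of 45101 probe sets, 64 controls were left out; of the other 45037, 34945 had 1 gene symbol, 932 several and 9160 were not listed. Symbols were updated by Entrez number to the gene table of GRCm38.p6 (34741 matched). Each gene was read by its single-symbol probe set with the highest mean over the 10 arrays. This gave 18193 genes, and the 40 integrins and cadherins had 82 probe sets. The test was limma's lmFit and eBayes (version 3.58.1, R 4.3.3) with group as the only term, checked on simulated data. The number of arrays, 5 a group, limits the precision. Relations to marker lists used 100000 permutations.

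The genes were chosen, and the lists of markers and partners drawn up, with earlier results of these data known. Genes with a mean of 7 or more were each named, and dimmer ones at an unadjusted p under 0.05 or without overlap, together with Cdh1, Cdh5, Itga2b and Cdh15. In each list of partners the 2 smallest p-values in each direction were named, and Itgav always. Alternatives were the mean of all probe sets, quantile normalisation, median centring, only genes with a mean of 7 or more, a trended robust prior, the label prefix as a term, either kind of normal array alone, a replicate block, an exact permutation test and leaving out each array. The alternatives for the relations to markers were chosen after seeing the data.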

Additional observations from a re-analysis of the deposited data

Results flagged for a closer look

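In 5 of the 80 groups looked at (40 genes in each of 2 groups of arrays), 1 array stood far from the other 4; chance alone does so in about 1 of 20 groups. Cdh1 read 5.73 on normal replicate 3, above the 4.60 to 4.69 of the other normal arrays. Itgb7 read 8.07 on the same array, below the 8.23 to 8.26 of the others. On CAF replicate 1, Cdh13 read 7.10 (the other CAF arrays 6.71 to 6.78) and Cdh20 read 7.86 (the others 7.95 to 7.99). Cdh23 read 6.64 on CAF replicate 4, above the 6.43 to 6.47 of the other CAF arrays.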

How the results depend on the processing

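The count of called integrins and cadherins was 0 under all alternatives, each left-out array included, except quantile normalisation (1, Itga2b). The count lower in CAF at an unadjusted p under 0.05 was 7 as reported. It was 5 after median centring, where Cdh7 and Cdh20 fell out, and 5 after quantile normalisation, where Cdh7 and Itgb8 fell out. With the mean of all probe sets it was 8, with a trended robust prior 6, and against the ls normal arrays alone 5. It was 3 with only genes of mean log2 7 or more tested (fewer genes enter) and 4 with the label prefix as a term. Against the vs normal arrays alone it was 3, and with 1 array left out 3 to 7. The count higher, 0 as reported, was 1 with the mean of all probe sets (Cdh6), 1 against the vs normal arrays (Itga5) and 0 to 2 with 1 array left out. Over all genes, the 137 calls became 285 after median centring, 41 with only genes of mean 7 or more, 46 with a trended robust prior, 0 with the prefix term, 1 against the ls normal arrays alone, 0 by the exact test, whose smallest adjusted p is 0.111, and 0 to 166 with 1 array left out. At an unadjusted p under 0.05, the prefix term left 1492 higher and 1157 lower, and the exact test 1652 and 2418. Among the 16 catenins and partners, 1 gene was called against the vs normal arrays alone, a setting that called 95 of all 18193 genes. The median of these partners was 0.19 over genes of mean 7 or more. Except where stated, the cause was not tested.

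A fit with the replicate number as a block gave 2 genes lower (Itga2b and Itga10) and 0 calls over all genes (1541 higher and 1476 lower at an unadjusted p under 0.05). Same-numbered arrays deviated from their group means with correlations of 0.34, -0.53, -0.48, -0.06 and -0.09, and only replicate 1 correlated best with its own number, so the numbers were not taken as pairs.

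The sign of the difference turned for 14 of the 40 genes under some alternative, 5 of them of mean 7 or more. With the prefix term and against the ls normal arrays alone, Cdh2 was -0.1306, Itgb3 -0.0669 and Itgb4 0.1474. Cdh5, Cdh8, Cdh9, Cdh19, Cdh26 and Itgb6 were 0.0356, 0.0441, 0.0397, 0.0401, 0.0464 and 0.0285 after quantile normalisation, 0.0011, 0.0293, 0.0185, 0.0308, 0.0232 and 0.0043 after median centring and 0.0093, 0.0072, 0.0116, 0.0166, 0.0203 and 0.0172 against the vs normal arrays alone. Cdh13 was 0.0041 after median centring and 0.0028 against the vs arrays, and Cdh17 -0.0047 against the latter. With 1 array left out, the difference ran for Cdh5 from -0.0842 to 0.0086, for Cdh8 from -0.0492 to 0.0192, for Cdh9 from -0.0673 to 0.0108, for Cdh11 from -0.0337 to 0.1769, for Cdh13 from -0.1069 to 0.0285, for Cdh17 from -0.0831 to 0.1027, for Cdh19 from -0.0499 to 0.0242, for Cdh26 from -0.0657 to 0.0224, for Itga1 from -0.0181 to 0.5651, for Itga6 from -0.1555 to 0.7276 and for Itgb4 from -0.1616 to 0.0230. The dim probe sets among these may lie at background.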
